A study of Mus musculus with 2 samples.

Results

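The 10 genes described here encode cadherins and other surface proteins, several of which are used to recognise satellite cells, from which skeletal muscle regenerates. They are Cdh2, Cdh4, Cdh11, Cdh13, Cdh15, Ncam1, Vcam1, Cd34, Calcr and Megf10, and they were taken by name from the 21887 protein coding genes of RefSeq on GRCm38. Every peak with its centre inside one of these genes, or within 50 kb of it, was assigned to that gene. This gave 54 of the 17539 GATA4 peaks in the deposited list. All 10 symbols were found in the gene table.

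The peaks come from chromatin immunoprecipitation sequencing (ChIP-seq), in which DNA bound by a protein is pulled down with an antibody and sequenced. Myoblasts, the proliferating muscle precursors that satellite cells give rise to, were grown from satellite cells of STOCK Myf5tm1Pas/J mice, a stock with a targeted Myf5 allele, in Ham's/F10 medium with 20% fetal serum and 20 ng/ml basic fibroblast growth factor. In 1 library the chromatin was precipitated with a mixture of GATA4 antibodies, and in 1 library with control IgG; both came from the same stock and culture condition. With no replicate, no spread between libraries exists and nothing was tested. Reads were not analysed here and the depth of both libraries is unknown. RNA was not measured, and whether these cells expressed the genes below, or the markers of a myoblast, cannot be read from the peaks.

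Classical cadherins join neighbouring cells by binding the same molecule on the next cell, and they hold on to the actin skeleton through catenins. Satellite cells sit between the muscle fibre and its basement membrane, and they are held to the fibre by M-cadherin (Cdh15) and N-cadherin (Cdh2). NCAM1, VCAM1, CD34 and the calcitonin receptor are surface proteins by which satellite cells are identified or sorted in mouse or human muscle. GATA4 is a zinc finger transcription factor, best known from the heart, that binds DNA at the letters GATA.

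Of the 10 genes, 7 had at least 1 GATA4 peak (70.0%, exact 95% interval 34.8% to 93.3%), against 56.8% of all protein coding genes. The median number of peaks was 2.5 for the 10 genes and 1 for all protein coding genes. The 10 genes were longer, with a median span of 159 kb against 17.2 kb, so the windows searched for peaks were longer too. Among the 6 genes over 150 kb long, 4 had a peak, against 73.1% of all protein coding genes of that length. Among the 4 shorter ones, 3 had a peak, against 55.6% of all such genes. The 150 kb limit was chosen after the values were seen. With so few genes, 1 gene more or less with a peak moves either share widely. Counting only peaks inside the gene, 5 of the 10 had one, against 21% of all protein coding genes. With 10 kb on each side 6 had one, against 33.3%, and with 100 kb 7 had one, against 69.9%. The number of peaks differed widely between the genes. Cdh2 had 15, Cdh13 had 14, Ncam1 had 12 and Megf10 had 6, which together make 47 of the 54. Vcam1 had 3, Cd34 and Cdh15 had 2 each, and Cdh4, Cdh11 and Calcr had none.

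RefSeq promoter sequences of GRCm38.p6, from 250 bases before to 50 bases after the start of transcription, were at hand for 3 of the 10 genes, Cd34, Calcr and Cdh15. The windows of Cd34 and Cdh15 are shown because they are the starts of a haematopoietic and satellite cell marker with a peak close by and of the muscle cadherin with none close by. Genes without a window, Cdh2 and Ncam1 included, could not show an overlap at their start. Among the promoter windows in the table, that of Gm16897, a lncRNA gene beside Cd34, is the only one overlapped by a peak of the 10 genes. Each is written 5′ to 3′ on the strand of its gene, and capitals mark the letters GATA on either strand (GATA or TATC).
Cd34, chr1:194938571-194938870, plus strand: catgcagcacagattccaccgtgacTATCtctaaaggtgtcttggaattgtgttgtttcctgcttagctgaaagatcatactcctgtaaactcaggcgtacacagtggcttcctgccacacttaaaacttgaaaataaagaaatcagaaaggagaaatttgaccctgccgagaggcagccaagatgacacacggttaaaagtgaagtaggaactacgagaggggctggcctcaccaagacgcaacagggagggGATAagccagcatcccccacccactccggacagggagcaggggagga
Gm16897, chr1:194976910-194977209, minus strand: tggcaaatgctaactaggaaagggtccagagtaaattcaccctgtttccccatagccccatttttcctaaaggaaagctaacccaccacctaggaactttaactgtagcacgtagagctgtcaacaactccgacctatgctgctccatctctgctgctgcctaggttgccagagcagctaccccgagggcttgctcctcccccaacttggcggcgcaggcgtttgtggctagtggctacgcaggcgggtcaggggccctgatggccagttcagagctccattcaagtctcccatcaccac
Cdh15, chr8:122848124-122848423, plus strand: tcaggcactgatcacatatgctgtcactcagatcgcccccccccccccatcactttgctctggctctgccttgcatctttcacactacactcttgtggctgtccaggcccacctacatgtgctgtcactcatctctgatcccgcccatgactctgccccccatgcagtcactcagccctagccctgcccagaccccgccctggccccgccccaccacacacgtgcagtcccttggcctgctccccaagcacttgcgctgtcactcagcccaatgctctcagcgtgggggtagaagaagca

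The Cd34 window held GATA at 2 places, at positions 26 and 254 of the 300 bases counted from its 5′ end. The windows of Gm16897 and Cdh15 held none. Calcr has a pair of start sites in the table. The window of its start at 3764713 held GATA at 1 place and the window of its start at 3763623 held none. GATA was found on either strand in 57.9% of the 32851 promoter windows of the same length in the table. The longer form AGATAG was found in 8.95% of all windows and at 1 place in that of Cd34, where it overlaps the GATA at position 26. AGATAA (11.2% of all windows), TGATAA (9.05%) and TGATAG (7.29%) were in none of these windows. CANNTG, the form bound by MyoD and its relatives, was in 72.3% of all windows, at 4 places in the Cdh15 window, at 1 place in the Gm16897 window and at none in the Cd34 window. TGANTCA (7.81% of all windows) was in none of them, and GGAATG (14.7%) was in only 1 of them, that of the Calcr start at 3764713. These matches describe letters in the promoter windows, most of which lie outside the peaks. Sequence of the peaks themselves was not used here.

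**Figure D1:**
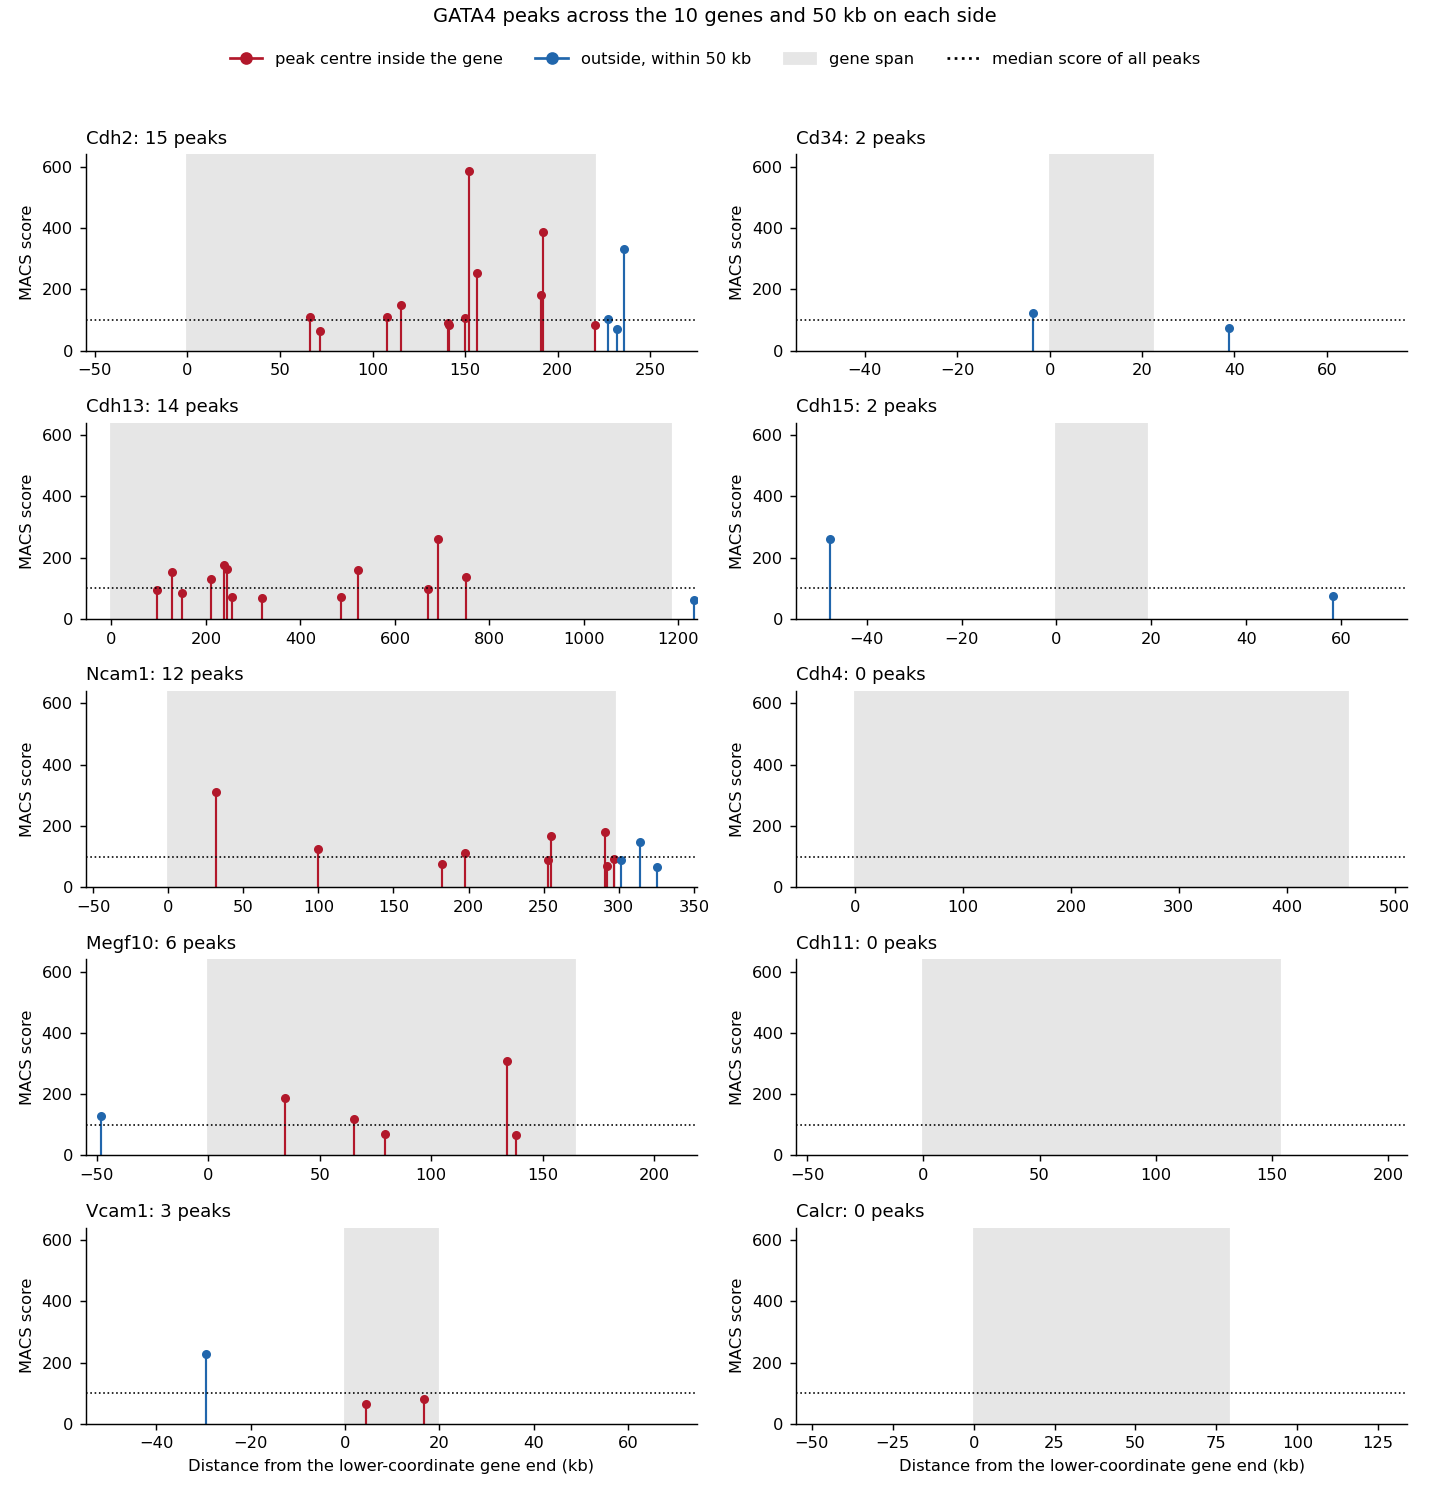
GATA4 peaks across each of the 10 genes and 50 kb on each side; the x axis is the distance of the peak centre from the lower-coordinate end of the gene (kb) and the y axis the authors' MACS score. Each stem is 1 peak, the grey area is the gene and the dotted line the median score of all peaks (99.3). The highest stem, at 585, lies inside Cdh2, and the panels of Cdh4, Cdh11 and Calcr are empty.

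Cdh2 encodes N-cadherin, a classical cadherin of muscle, heart and nerve. The gene spans 16588877 to 16809246 on chromosome 18 (GRCm38), and 12 of its 15 peaks had their centre inside the gene. The other 3 lay beyond its higher-coordinate end. The window held 4.68 peaks per 100 kb (exact Poisson 95% interval 2.62 to 7.72, counting error only), against 0.629 per 100 kb on the whole of chromosome 18, a ratio of 7.44. Here and below, the chromosome value also counts sequence far from genes. It is therefore not the density around a typical gene, and ranks among genes are given beside it. By number of peaks Cdh2 ranked 26 among the 21887 protein coding genes, of which 0.425% had 12 or more. By peaks per 100 kb of window it ranked 357. Of the 872 genes with a window at least as long, 20 had as many peaks, Cdh2 included.

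The scores of the Cdh2 peaks ran from 62.7 to 585, with a median of 110. The MACS score is the authors' value for each peak. It is higher for a stronger call, and only scores within this list are set side by side. The highest-scoring peak lay at 16740404 to 16741882, was 1479 bp wide and ranked 14 among all peaks. Its centre was 152 kb from the lower-coordinate end, at 69.1% of the length of the gene. A peak with a score of 252 followed 4.07 kb farther on, at 16744678 to 16745750. At 16778988 to 16780491 and 16780493 to 16781567 lay a pair of peaks with 1 bp between them, which scored 180 and 387. The peak with a score of 331 lay outside the gene, at 16823870 to 16825027, 15.2 kb beyond the higher-coordinate end. Thus 3 of the 15 Cdh2 peaks scored over 300 (20.0%), against 2.06% of all peaks.

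Weak peaks lay between these strong ones and at the gene end itself. The peak centred 0.396 kb inside the higher-coordinate end, at 16808544 to 16809156, scored 83.3, below the list's median of 99.3. Its neighbours beyond that end scored 102 at 6.93 kb and 69.5 at 11.8 kb. The second of these had its centre inside Gm15328, a lncRNA gene. No protein coding gene other than Cdh2 had any of the 15 peaks in its span or within 50 kb.

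Many of the Cdh2 peaks were close together, and they began well inside the gene. For 10 of the 15 another peak was centred within 5 kb (66.7%), against 25.4% of all peaks. The median distance to the nearest peak was 3.39 kb, against 18.7 kb for all peaks. The first 66.4 kb of the gene from its lower-coordinate end held no peak. The peak-free run that includes this part went on outside the gene, from 15021809 to 16654781, and was 1.63 Mb long. Beyond the other end, the next peak after the 50 kb limit was 80.0 kb away and scored 138.

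Cdh13 encodes T-cadherin, which lacks the cytoplasmic part of other cadherins, is anchored to the membrane by a lipid and binds adiponectin. The gene is 1185 kb long (chromosome 8, 118140017 to 119324929), so that its 14 peaks were spread thinly. The density was 1.09 per 100 kb (0.596 to 1.83), against 0.598 per 100 kb on the whole of chromosome 8. The whole-chromosome value lies just inside that interval. By number of peaks Cdh13 ranked 31 among protein coding genes, but by peaks per 100 kb it ranked 6577. Among the 34 genes with a window as long, 5 had as many peaks.

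Inside Cdh13 lay 13 peaks, all in the lower-coordinate 63.3% of the gene. A group of 3 with centres 7.03 and 9.94 kb apart had scores of 176 at 118376837 to 118377651, 163 at 118383789 to 118384762 and 70.3 at 118393902 to 118394524. The highest score, 261, belonged to a peak of only 325 bp at 118830336 to 118830660. The others among the 5 highest scored 159 and 153. From the peak at 118889662 to 118890060 to the higher-coordinate end, 435 kb of the gene held no peak. The remaining peak, with a score of 62.3, was 48.3 kb beyond that end and also within 50 kb of Hsbp1 and Mlycd. No Cdh13 peak scored over 300, none had another within 5 kb, and 5 of the 14 were narrower than the lower quartile of all peaks (589 bp). The peak nearest to the lower-coordinate end, at 97.3 kb inside the gene, scored 92.6.

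Cdh15 encodes M-cadherin, the cadherin most closely tied to satellite cells and myoblasts. It is short, 19.0 kb on chromosome 8 at 122848374 to 122867397, and held no peak inside. Its start of transcription, within the sequence shown above, was 47.8 kb from the centre of the nearest peak on that side. That peak, at 122800025 to 122801171, scored 259, and its centre was inside Acsf3, which encodes a mitochondrial acyl-CoA synthetase. The other, at 122906333 to 122907084 and 39.3 kb beyond the end of Cdh15, scored 75.8 and was inside Ankrd11 and the lncRNA gene Gm39273. Neither was nearest to Cdh15 among protein coding genes. With both counted, the window held 1.68 peaks per 100 kb (0.203 to 6.07), against 0.598 on chromosome 8. That density ranked 4891 among protein coding genes.

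Cdh4 and Cdh11 had no peak. Cdh4 encodes R-cadherin, a classical cadherin close to N-cadherin, and Cdh11 encodes a type II cadherin of mesenchymal cells. Cdh4 is 457 kb long (chromosome 2, 179442423 to 179899377). Its window of 557 kb had 0 peaks per 100 kb, with an upper limit of 0.662, against 0.722 on the whole of chromosome 2. A count of 0 was not unusual for its length, since 91 of the 272 genes with a window at least as long had none. The nearest peak was 307 kb beyond the higher-coordinate end and scored 97.0.

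Cdh11 (chromosome 8, 102632095 to 102785493) lay much farther from any peak. The nearest was 979 kb away, with a score of 97.0, and 4.77% of protein coding genes had their nearest peak as far or farther. It lay in a run of 7.90 Mb without a peak, from 95864468 to 103763863. That was the seventh longest of the 17518 runs between neighbouring peaks, which had a median length of 46.1 kb. The run held 2 protein coding genes, and both are cadherins, Cdh8 and Cdh11. The Cdh11 window itself had 0 peaks per 100 kb, with an upper limit of 1.46 that lies above the 0.598 of the chromosome, so on this window alone a lower density was not detectable.

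**Figure D2:**
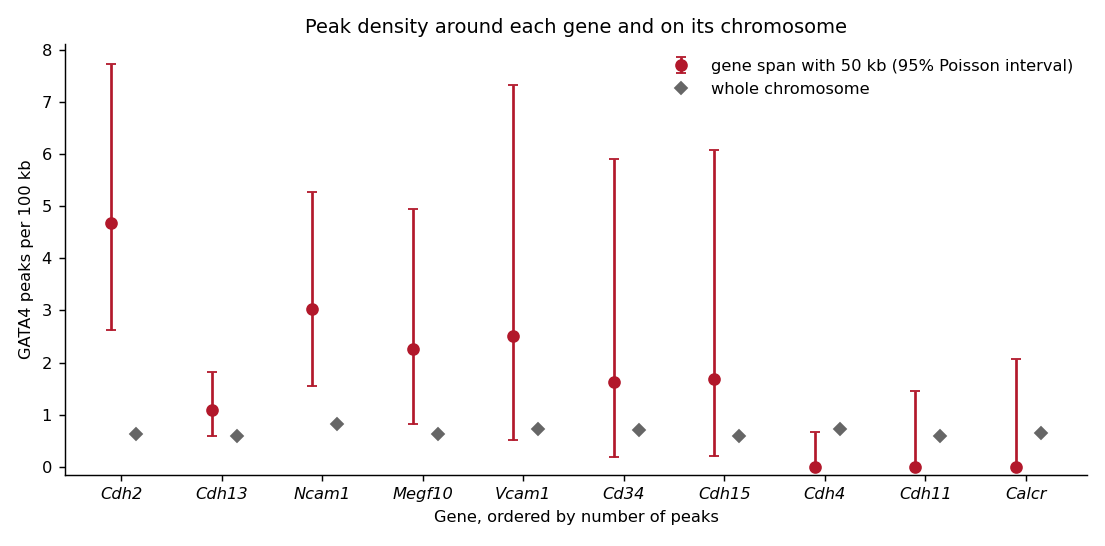
GATA4 peaks per 100 kb (y axis) in the span of each gene with 50 kb on each side (circles, with exact Poisson 95% intervals for counting error) and on the whole chromosome of that gene (diamonds); genes are ordered along the x axis by number of peaks. Cdh2 stands at 4.68 with an interval from 2.62, against 0.629 for its chromosome, and Cdh4, Cdh11 and Calcr stand at 0. The whole-chromosome values also count sequence far from genes.

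Ncam1 encodes NCAM1 (CD56), an immunoglobulin-type adhesion molecule of nerve and regenerating muscle by which human myoblasts are sorted. It lies on chromosome 9, 49502129 to 49799393, with 9 of its 12 peaks inside the gene and 3 beyond the higher-coordinate end. The density was 3.02 peaks per 100 kb (1.56 to 5.28), against 0.820 on the whole of chromosome 9, a ratio of 3.68. By number of peaks it ranked 76 among protein coding genes, but by peaks per 100 kb it ranked 1314. Of the 565 genes with a window at least as long, 40 had as many.

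The peaks of Ncam1 gathered at its higher-coordinate end. Between 6.62 kb inside that end and 4.21 kb beyond it lay 4 peaks. They scored 182 at 49792136 to 49793411, 68.6 at 49794234 to 49794890, 91.5 at 49798521 to 49799431 and 90.0 at 49803244 to 49803954. The third of these was centred 0.417 kb inside the end and extended across it. Farther out, a peak at 17.0 kb scored 146 and another at 28.5 kb scored 64.3. The highest score, 311, was at the opposite part of the gene, at 49533396 to 49533926, 31.5 kb from the lower-coordinate end. That peak was also inside the lncRNA gene Gm11149 and within 50 kb of Ttc12. The others among the 5 highest scored 167, at 49756730 to 49757055, and 125, at 49601115 to 49602081.

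Only Cdh2 and Ncam1 had a peak centred within 1 kb of a gene end, 2 of 10 genes against 9.47% of all protein coding genes. Both of those peaks were inside the higher-coordinate end, and both scored below the median of the list. The gene table gives no strand for these genes, so which end is the start of transcription was not read from it. Of the 54 peaks, 45 lay more than 10 kb from either end of their gene. The same share was not computed for all peaks, and long windows hold many such positions, so this count only describes where the peaks lay.

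Megf10 encodes a receptor with EGF-like repeats that keeps satellite cells proliferating and that is mutated in a human myopathy. It lies on chromosome 18, 57133090 to 57297467, with 5 peaks inside and 1 outside. The scores inside the gene, from the lower-coordinate end, were 187 at 57167134 to 57168330, 118 at 57198011 to 57198686, 70.5 at 57212123 to 57212741, 308 at 57266147 to 57268041 and 66.7 at 57270741 to 57271436. The peak with a score of 308 was 1895 bp wide, the widest of the 54. The peak outside, at 57084815 to 57085543, was 47.9 kb from the gene, just within the 50 kb limit, and scored 128. The first one beyond the limit, at 52.9 kb, scored 79.8. The density was 2.27 per 100 kb (0.833 to 4.94), against 0.629 on chromosome 18, and ranked 2773 among protein coding genes. Counts of 6 or more were found at 3.56% of all protein coding genes, and at 266 of the 1270 genes with a window at least as long (20.9%).

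Vcam1 encodes a ligand of the integrin alpha4 beta1 that is used to sort mouse satellite cells. In Vcam1 (chromosome 3, 116110020 to 116129688), both peaks inside the gene were weak, with scores of 63.5 at 116114040 to 116114807 and 81.3 at 116126480 to 116127125. A stronger one, with a score of 228, lay 29.4 kb outside on the lower-coordinate side, at 116080106 to 116081132, where no other protein coding gene was within 50 kb. The density of 2.51 per 100 kb (0.517 to 7.33) had an interval that includes the 0.723 of chromosome 3. It ranked 2368 among protein coding genes.

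Cd34 encodes a sialomucin of satellite cells, blood stem cells and endothelium. The gene, at chromosome 1, 194938821 to 194961292, had no peak inside. A peak at 194934786 to 194935798, with a score of 122, was centred 3.53 kb before the start of transcription. The nearer edge of that peak was 3.02 kb from the start, outside the promoter window shown above. The other peak, at 194977156 to 194978256, was 16.4 kb beyond the far end of the gene and scored 72.3. It covered 54 of the 300 bases of the Gm16897 promoter window shown above and had its nearer edge 0.197 kb before the start of that lncRNA gene. Just beyond the 50 kb limit, at 53.1 kb, was a peak with a score of 140. The density was 1.63 per 100 kb (0.198 to 5.90), against 0.711 on chromosome 1, and ranked 5098 among protein coding genes.

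Calcr encodes the calcitonin receptor, which keeps mouse satellite cells quiescent and is lost when they are activated. It lies on chromosome 6, 3685678 to 3764713, and had no peak in a window of 179 kb. The nearest peak was 163 kb beyond the higher-coordinate end and scored 84.1, and 22.1% of protein coding genes had their nearest peak as far or farther. The upper limit of 2.06 peaks per 100 kb is above the 0.650 of chromosome 6, so this window cannot show a lower density.

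The 54 peaks had a slightly higher median score than the list as a whole. Their median score was 110 (quartiles 78.1 and 166), against 99.3 (77.7 and 138) for all 17539 peaks. The exact 95% interval of the median, 90.0 to 138, includes the value of the whole list. It takes the peaks as independent, although 47 of the 54 were at 4 genes and many lay close together. Above the upper quartile of all peaks lay 19 of the 54 (35.2%), against 24.2% of all peaks. A score over 300 was found for 5 of the 54 (9.26%), against 2.06% of all peaks. Of the 5, 3 belonged to Cdh2, 1 to Ncam1 and 1 to Megf10. By gene, 1.69% of all protein coding genes had such a peak, but most of their windows are shorter than those of these genes. The median width was 778 bp, against 745 bp for all peaks. Another peak within 5 kb was found for 19 of the 54 (35.2%), against 25.4% of all peaks. Of these, 10 were at Cdh2, 6 at Ncam1 and 3 at Megf10.

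**Figure D3:**
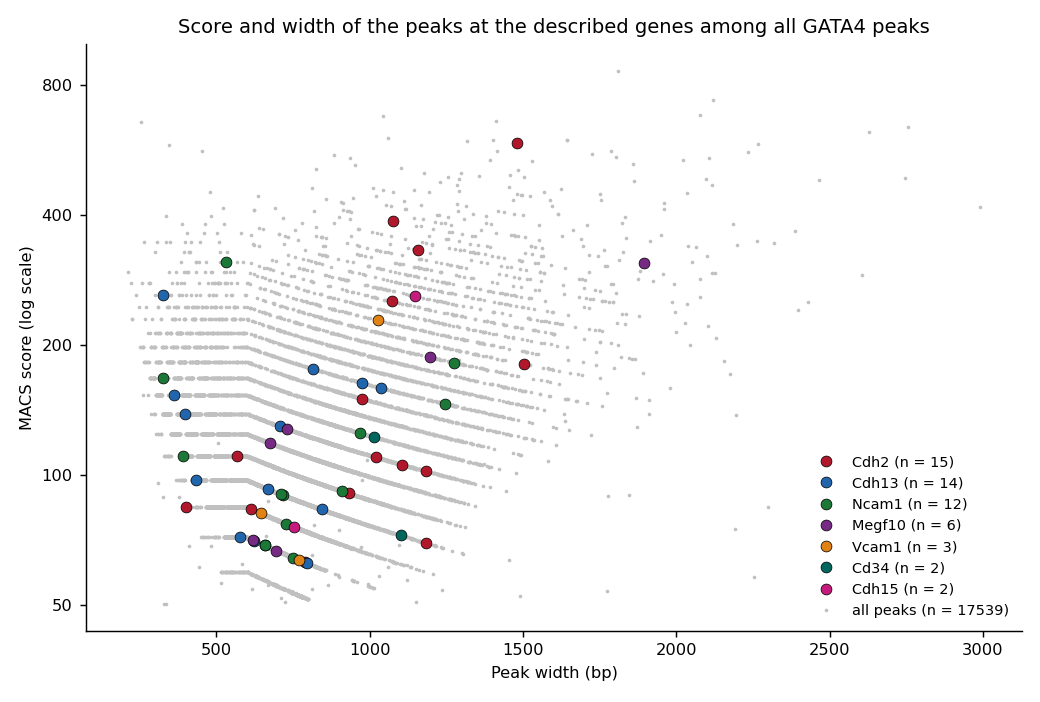
MACS score (y axis, log scale) against peak width in bp (x axis) for the 54 peaks at the described genes, coloured by gene, and for all 17539 peaks (grey). The Cdh2 peaks with scores of 331 to 585 are over 1000 bp wide, while the highest-scoring Cdh13 peak is 325 bp wide.

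Cdh2 had the widest peaks of the 4 genes with 6 or more, with a median of 1073 bp, against 722.5 bp at Ncam1, 712.5 bp at Megf10 and 662.5 bp at Cdh13. The highest Ncam1 peak was 531 bp wide. How duplicate reads were handled is unknown here. Whether duplicates played a part in the narrow peaks with high scores, at Cdh13 and Ncam1, was not tested.

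The other genes of the adhesion system gave context for these values. Of 17 further cadherin genes, 8 had a peak (47.1%, exact 95% interval 23.0% to 72.2%), against 56.8% of all protein coding genes. The list was drawn up for type I and II cadherins, but it also holds Cdh16 and Cdh17, which are of neither type. The share is therefore that of the list and not of type I and II cadherins alone. Cdh18 had the most, 8 peaks over 929 kb with a highest score of 245. Cdh5, the cadherin of endothelial junctions, had 4 peaks, and Cdh17, a cadherin of intestine and liver, had 3. Cdh1 and Cdh3, the E- and P-cadherin genes, are neighbours on chromosome 8 and share the peak with a score of 207. No cadherin gene of this list had as many peaks as Cdh2, Cdh13 or Ncam1.

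Of 12 genes of catenins and junction partners, 10 had a peak (83.3%, 51.6% to 97.9%), against 56.8% of all protein coding genes. The interval includes that value, and these genes were longer, with a median span of 91.4 kb against 17.2 kb. Ctnna3, the alpha-T-catenin gene, had 13 peaks over 1574 kb with a highest score of 213. Afdn, encoding the actin-binding junction protein afadin, and Ctnnd1, encoding p120 catenin, had 6 each, with highest scores of 250 and 165, both inside the gene. For Ctnnb1, the beta-catenin gene, the highest score of 222 was at a peak 10.9 kb from the gene and inside Ulk4. For Ctnna1, the alpha-E-catenin gene, it was 240 at a peak 44.9 kb away and inside Sil1.

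Of 16 paralogs and partners of the surface markers, 12 had a peak (75%, 47.6% to 92.7%), against 56.8% of all protein coding genes. That value lies inside the interval, and the median span was 44.9 kb against 17.2 kb. RAMP proteins pair with the calcitonin receptor and its relative, and all 3 of their genes had peaks, while Calcr had none. Ramp2 had only 1, centred 5.67 kb outside the gene and inside Vps25, with a score of 77.0, below the list's median of 99.3. Inside Ramp3 a peak scored 450, at chromosome 11, 6672434 to 6673510, which ranked 57 among all peaks. Ramp1 had 4 peaks with a highest score of 253 inside the gene. Cd44, encoding the hyaluronan receptor, had 9 peaks with a highest score of 182. Itgb1, the beta1 subunit of the VCAM1-binding integrin, had 5, with a highest score of 149. Itga7 and Megf11, a paralog of Megf10, had 4 each, with highest scores of 185 and 153. Ncam2, the paralog of Ncam1, had none over 424 kb.

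CD34, VCAM1 and T-cadherin are also made by endothelium. Of 10 endothelial surface genes, 8 had a peak (80.0%, 44.4% to 97.5%), against 56.8% of all protein coding genes, which lies inside the interval. Their median span was 39.5 kb against 17.2 kb. Among the 8 was Cdh5, which the cadherin list also holds. Tek, Eng and Sele had 3 peaks each, with highest scores of 140, 128 and 84.1. Selp, a neighbour of Sele with which it shares a peak, reached 175 and Emcn 165. Pecam1 and Icam2 had none. What part cells other than myoblasts had in the peaks was not tested.

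**Figure D4:**
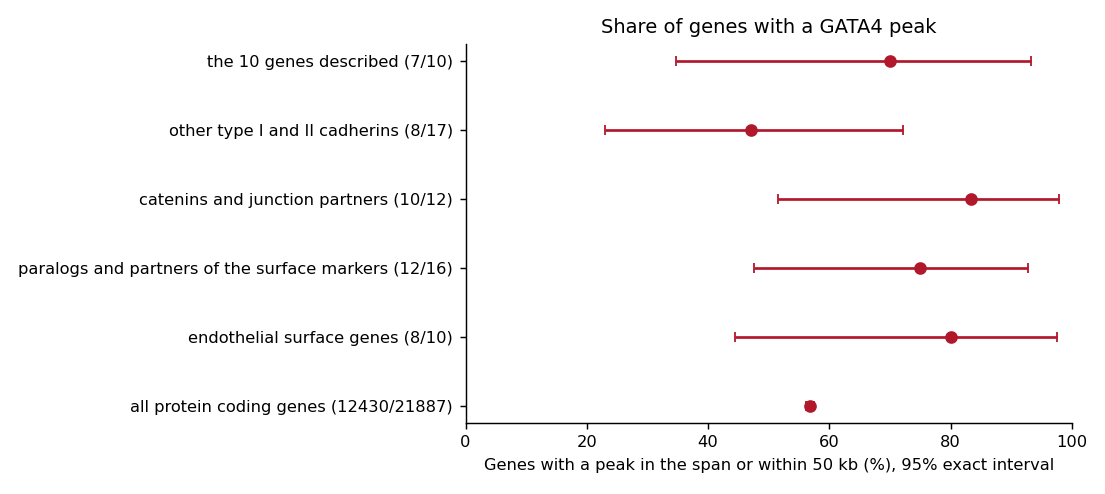
Share of genes with a GATA4 peak in the gene span or within 50 kb (x axis, %) for the 10 described genes, the 4 further gene lists and all protein coding genes (y axis); bars are exact 95% intervals for counting error. The 10 genes stand at 70.0% and all protein coding genes at 56.8%, and the interval of the 10 genes includes the second value.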

How the data were processed

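The authors deposited a list of GATA4 peaks, each with its position and a score from MACS. Peaks were called with MACS in Galaxy, per the file header, and CASAVA 1.8, Bowtie and the build GRCm38 (mm10) are named in the submitters' processing notes. The sources used here do not give the calling threshold, how duplicates were treated or whether IgG served as the control. The score was used as the authors' deposited score, without rescaling. The peak numbers run from 1 to 17539 with none missing.

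Peak starts were made 1-based, and centres were assigned to RefSeq gene spans of GRCm38.p6 with 50 kb on each side, in Python 3.11.15 with pandas 2.3.3. Densities of chromosomes ran from 3 Mb to the last gene end. Intervals of shares and densities are exact (Clopper-Pearson or Poisson, SciPy 1.17.1) and cover counting error only. That of the median score comes from the ranks of the scores, taken as independent. Assignment was checked on simulated peaks. Every peak was named for genes with 6 or fewer, otherwise the 5 highest scores and those nearest the gene ends, plus further ones chosen after their values were seen. Of each further list, the 3 genes with the highest score and the 3 with the most peaks were named, with ties, and others after their values were seen. The genes and lists were chosen with earlier results of these data known. Alternatives were other windows, any overlap, higher-scoring peaks, the nearest gene and, added after seeing the data, wider peaks.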

Additional observations from a re-analysis of the deposited data

How the results depend on the processing

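No paired analysis was possible because there was 1 library per antibody and no value came from a test. The number of genes with a peak, 7, and the median score, 110, stayed within 1.5 times and within the interval of the median under every alternative run for them. The 54 peaks became 30 with a score above the list's median and 19 above its upper quartile. Above the median, Cdh2 had 10 peaks, Cdh13 7, Ncam1 6, Megf10 4, and Vcam1, Cd34 and Cdh15 1 each. Above the upper quartile, Cdh2 had 6, Cdh13 5, Ncam1 4, Megf10 2, Vcam1 and Cdh15 1 each, and Cd34 0. With the gene span alone there were 41, with 10 kb 44 and with 100 kb 64. Cdh15 had 0 peaks with the gene span alone, with 10 kb and with the nearest protein coding gene. Cd34 had 0, 1 and 4 with the gene span, 10 kb and 100 kb. Without peaks narrower than the lower quartile, an alternative added after seeing the data, Cdh13 had 9. Cdh4, Cdh11 and Calcr had 0 under every alternative. Peak sequence was not at hand, so the planned count of GATA letters in peaks was not run.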

Other observations

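Many peaks of the list had the same score. A score of 84.1 was shared by 710 peaks, 97.0 by 659, 110 by 607 and 138 by 428. Of the 54 peaks, 8 (14.8%) had a score shared by at least 50 peaks, against 25.7% of all peaks. That limit leaves out the highest Cdh13 and Ncam1 peaks, whose scores of 261 and 311 were shared by 25 and 10 peaks. By gene, 4 of the 8 were at Cdh13, 2 at Cdh2 and 2 at Ncam1, and each was 577 bp wide or less. The nearest peaks to Cdh4, Cdh11 and Calcr had such scores too, 97.0, 97.0 and 84.1, in peaks of 494, 509 and 489 bp. Among the further genes, the highest scores of Ctnna3 (213), Cd44 (182), Megf11 (153) and Sele (84.1) were also shared by at least 50 peaks. So were those of Calcrl (167), Cdh5 (124), Jup (110), Cdh12 (84.1), Icam1 (84.1) and Kdr (71.6). That of Cdh18 (245) was shared by 48.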
